A study of Mus musculus with 32 samples.

Results

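The cathepsin and vacuolar ATPase genes are the protein-coding genes of the deposited table whose symbols name a cathepsin by a single letter (Ctsa, Ctsb and so on) or a subunit or accessory protein of the vacuolar ATPase (symbols that begin with Atp6v or Atp6ap). There were 44 of them, 18 cathepsins and 26 vacuolar ATPase genes, among 54838 genes listed and 22026 protein-coding genes with counts. All 44 had a value in each library.

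Cathepsins are proteases that break down protein, for the most part inside lysosomes. Most are cysteine proteases, Ctsd and Ctse are aspartic proteases, and Ctsa and Ctsg are serine proteases. The vacuolar ATPase is the proton pump that acidifies lysosomes and endosomes. Its V1 part sits in the cytosol and splits ATP, its V0 part spans the membrane and carries protons, and accessory proteins help to build and place the complex. In skeletal muscle, lysosomes clear the protein and organelles that autophagy delivers, and cathepsin L is a well-known gene of muscle wasting.

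The libraries came from total RNA of 3 leg muscles, namely gastrocnemius, quadriceps and tibialis, all from male mice no older than 3 months. The wild-type mice carried no knock-in, and both knock-in states carried the M743T substitution on both alleles of Gne, the bifunctional enzyme that starts sialic acid synthesis. The submitters called knock-in mice healthy or sick and the labels do not say by which signs. Each muscle gave 4 wild-type and 3 sick knock-in libraries, with 3 healthy knock-in libraries in the gastrocnemius and 4 in each of the quadriceps and the tibialis, 32 in all. Nothing in the labels ties libraries of different muscles to 1 mouse. Nor do they say that the libraries of a group are different mice, beyond the 4 per state that the design text names. If those 4 gave all libraries of a state, libraries of different muscles come from the same mice. The tests rest on the spread between libraries and treat them as independent.

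Total counts ran from 7685164 to 42588233 per library. The 8 skeletal muscle fibre markers were read in each group, with summed CPM (a gene's reads relative to the scaled read total of its library) from 93112 to 199803 per library. Libraries of the wild-type tibialis stood apart in 16 kidney tubule markers, which summed to 61.7, 82.8, 76.1 and 64.9 CPM there. The same markers reached at most 2.24 CPM in the other libraries, except 24.0 CPM in healthy gastrocnemius replicate 2. Mitochondrial genes took 4.79 to 6.69% of the counts in sick quadriceps and 7.04 to 10.8% in wild-type quadriceps, and 8.28 to 12.3% in sick and 13.4 to 15.5% in wild-type tibialis, with no overlap in either muscle. The part of the kidney tubule and mitochondrial differences in the results below was not tested. Gene counts do not show the point substitution, so the genotype labels could not be checked from them.

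In wild-type muscle the family ran from abundant genes to genes with no read. Per kilobase of exon, Atp6v1g1, a stalk subunit of V1, had a mean level of 170.1 CPM per kb over the 12 wild-type libraries, ahead of Ctsd with 127 and Ctsb with 59.2 CPM per kb. Next came Atp6ap1, an accessory protein, with 35.1 CPM per kb, and Atp6v0c, which forms the proton-carrying ring of V0, with 26.1 CPM per kb. Ctsl was 11th of the 44 with 14.9 CPM per kb, and Atp6v1h, the regulatory H subunit of V1, was 28th with 1.52 CPM per kb. In the gastrocnemius the level of Ctsl was 14.2 ± 3.38 CPM per kb, in the quadriceps 16.9 ± 1.82 and in the tibialis 13.7 ± 2.97 (SD, n = 4), with overlapping SD ranges. Some neighbours in the order, such as Atp6v0d1 with 19.7 and Atp6v0b with 19.3 CPM per kb, had overlapping SD ranges in each muscle. Others stood apart, such as Ctsd and Ctsb, with 128 ± 17.3 and 62.2 ± 2.55 CPM per kb in the quadriceps.

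**Figure D1:**
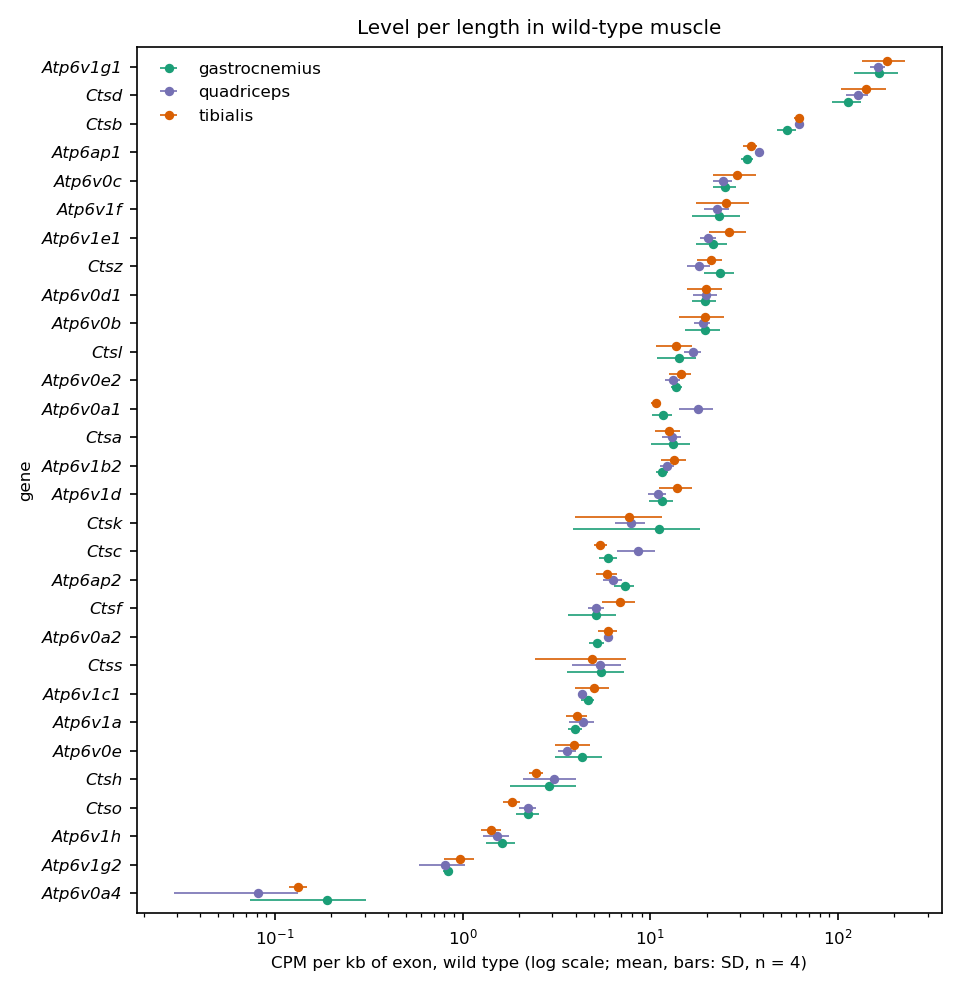
Level of the 30 most abundant cathepsin and vacuolar ATPase genes in wild-type muscle, in CPM per kilobase of exon on a log axis, with the mean and SD of 4 libraries for each muscle. Atp6v1g1, Ctsd and Ctsb lead in all 3 muscles, and Atp6v0a4 is lowest.

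Where a subunit of the pump has several gene copies, 1 copy gave most of the level per length. Atp6v1b2 gave at least 99.7% of the B subunit level in each of the 32 libraries, Atp6v0d1 at least 96.2% of the d subunit level and Atp6v1g1 at least 99.3% of the G subunit level. The a subunit, which holds the proton path of V0, was shared. Atp6v0a1 gave a median of 62.7% of it, Atp6v0a2 27.0%, Tcirg1 (the osteoclast-rich a3 copy, outside the symbol rule) 9.74% and Atp6v0a4 0.438%. For the e subunit, Atp6v0e2 gave a median of 77.9% and Atp6v0e 22.1%. Members known from other tissues were close to 0: Ctsm, a placental cathepsin, had no read in the 32 libraries, and the kidney-rich Atp6v1b1 and Atp6v1g3 had at most 3 and 2 reads in a library. Ctsg, a neutrophil and mast cell protease, had 26 reads in all.

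After the filter on low counts, 30 members could be tested in the gastrocnemius, 29 in the quadriceps and 30 in the tibialis. A gene was called when its adjusted p-value from limma was under 0.05, with Benjamini-Hochberg adjustment over all genes tested. A member that passes the filter only through a group where it is high has to differ, so the counts describe the members tested and not all 44. In a bulk sample fewer cells of a type and less RNA per cell cannot be told apart, which holds for each result that follows.

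In sick against wild-type muscle, Ctsl showed the highest positive fold change of all members in each muscle, and Atp6v1h was second in the gastrocnemius and the tibialis. In the gastrocnemius 3 of 30 members were called, 2 higher and 1 lower, where 14.7% of all genes tested were called. In the quadriceps 9 of 29 were called, 7 higher and 2 lower, against 18.0% of all genes. In the tibialis 3 of 30 were called, all of them lower, against 18.1% of all genes. As shares these are 10%, 31.0% and 10% of the members tested, so that in the gastrocnemius and the tibialis the members' share was below that of all genes. The tibialis calls include Atp6v0a4, which no sick library helped to pass the low-count filter. The median log2 fold change of the members was 0.11, 0.14 and -0.13 in the 3 muscles, beside -0.03, 0.00 and -0.05 for all genes. All 9 calls of the quadriceps were lost when sick replicate 2 or 3, or wild-type replicate 1, 2 or 3, was left out, and all 9 were kept without sick replicate 4 or wild-type replicate 4. The share of all genes called there moved as well, to 0.597% without sick replicate 2, 4.81% without sick replicate 3 and 5.43 to 7.56% without 1 of those wild-type replicates, and to 29.4% without sick replicate 4. The authors' deposited adjusted p-values under 0.05 gave other counts, out of 36 members. In the quadriceps 2 were higher and 3 lower, where 9.36% of all genes were called. In the gastrocnemius 2 were higher and 4 lower (12.3% of all genes), and in the tibialis 2 and 4 (15.2%). The mostly higher quadriceps calls and the lack of higher tibialis calls are thus not found there. The 3 comparisons use different libraries, but these may come from the same mice, so the muscles are not known to be separate observations. The comparisons with healthy knock-in mice further on share the sick libraries with these 3 comparisons.

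Cathepsin L is a broad endopeptidase of the lysosome. Its gene, Ctsl (ENSMUSG00000021477), lies on the minus strand of GRCm38 at chr13:64359337-64370890. In wild-type gastrocnemius Ctsl measured 121, 76.5, 97.7 and 73.3 CPM in replicates 1 to 4, and in sick gastrocnemius 226, 587 and 638 CPM in replicates 1 to 3. All sick libraries lay above all wild-type libraries, with replicate 1 well under the other two. The log2 fold change was 2.31 ± 0.33 (SE), with an adjusted p of 0.0036 from limma.

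In wild-type quadriceps Ctsl measured 119, 98.4, 120.5 and 101 CPM, and in sick quadriceps 825, 649.8 and 136 CPM in replicates 2, 3 and 4. Replicates 2 and 3 were high, while replicate 4 lay just above the wild-type range. Ctsl rose by 1.95 ± 0.48 on the log2 scale (limma, adjusted p = 0.0235). The adjusted p was 0.1235 without sick replicate 2, 0.0868 without sick replicate 3 and 0.0527 to 0.0548 without wild-type replicate 1, 2 or 3. Keeping genes with low counts gave 0.1023. Without sick replicate 4 the log2 fold change was 2.74.

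In wild-type tibialis Ctsl measured 86.5, 84.0, 115 and 69.0 CPM, and in sick tibialis 191, 1314 and 114 CPM in replicates 1, 2 and 4. Replicate 2 held the highest Ctsl level of the 32 libraries, 14.8-fold the wild-type mean of its muscle, and replicate 4 lay within the wild-type range. The log2 fold change of 1.78 ± 0.60 did not pass the test (limma, adjusted p = 0.0573). It passed without sick replicate 4 (log2 fold change 2.50, adjusted p = 0.0144) and in a model of all 32 libraries (adjusted p = 0.0168). In the authors' deposited table Ctsl has log2 fold changes of 2.41, 2.30 and 2.61 in the gastrocnemius, quadriceps and tibialis, with adjusted p-values of 0.000210, 0.000803 and 3.78e-05.

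**Figure D2:**
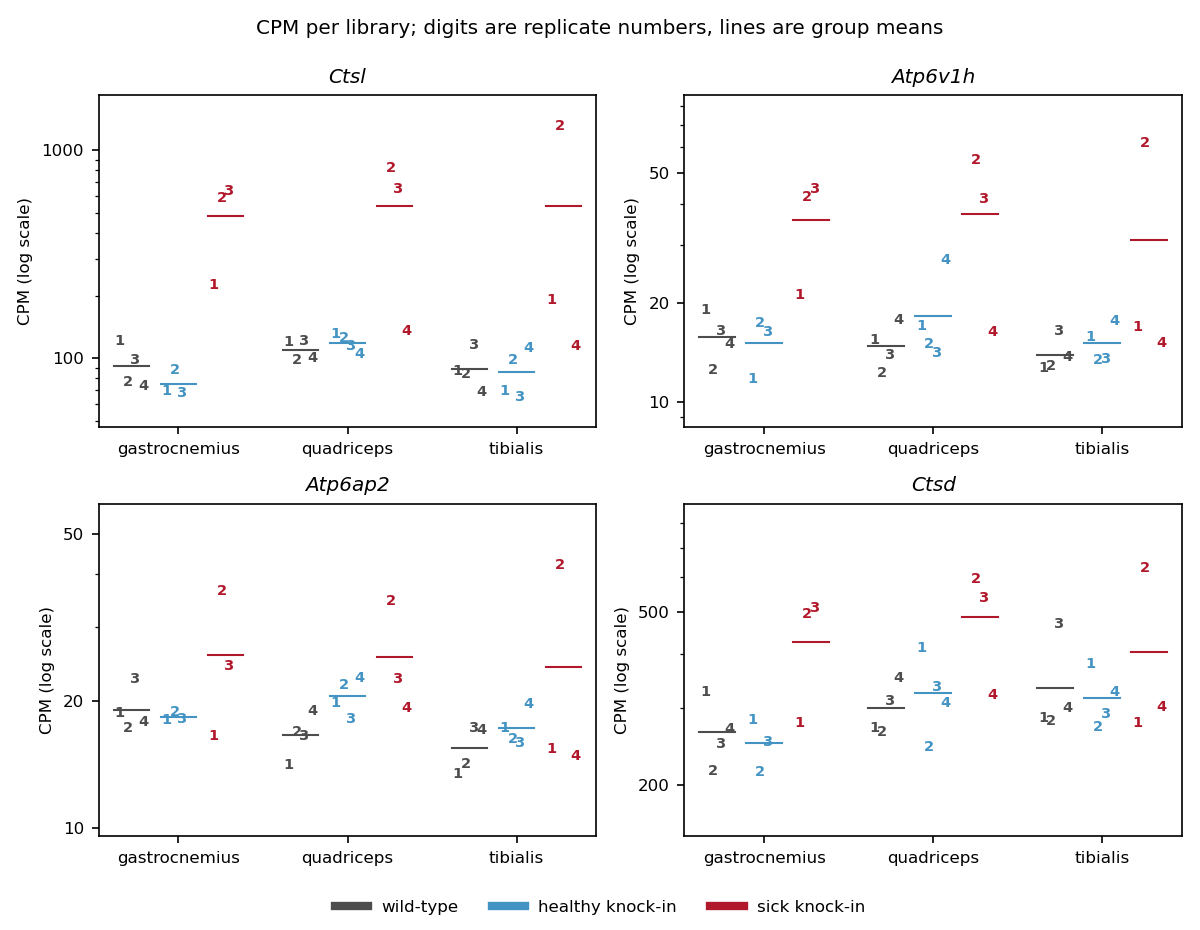
CPM on a log axis for Ctsl, Atp6v1h, Atp6ap2 and Ctsd in each library, by muscle and state, with replicate numbers as marks and group means as lines. In each muscle the sick library numbered 2 is high for these genes, and in the quadriceps and tibialis the sick library numbered 4 lies near or within the wild-type range.

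Ctsl also took a larger share of the summed cathepsin level. Per length it made up 4.02 to 7.14% of that level in the 12 wild-type libraries and 3.66 to 7.19% in the 11 healthy knock-in libraries. In the sick libraries it made up 13.8, 22.2 and 23.9% in the gastrocnemius, 25.5, 21.7 and 7.50% in the quadriceps and 12.1, 35.3 and 7.31% in the tibialis, in the order given before. In those libraries where the Ctsl share passed 20%, Ctsb made up 8.12 to 11.5% of the cathepsin level, and in the 12 wild-type libraries it made up 19.1 to 24.4%. These are shares of a common total, so a higher Ctsl level lowers the Ctsb share even where Ctsb is unchanged. The Ctsb level itself differed less. In the same sick libraries it was 245 and 250 CPM in the gastrocnemius, against 293 to 368 CPM in wild type. In the quadriceps it was 307 and 321 against 357 to 394 CPM, and in the tibialis 282 against 354 to 405 CPM.

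The other cathepsins called higher in sick against wild-type muscle, Ctsf and Ctss, were called in the quadriceps, and no member was called for a difference between muscles. Ctsf, a cysteine protease, measured 25.5, 23.6, 29.6 and 25.3 CPM in wild-type and 44.9, 34.7 and 33.6 CPM in sick quadriceps. The groups did not overlap, and the log2 fold change was 0.56 ± 0.15 (limma, adjusted p = 0.0293). In the gastrocnemius its log2 fold change was 0.32 and in the tibialis -0.18, neither of them called.

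Ctss, the cathepsin of antigen-presenting cells, measured 5.30, 7.99, 6.02 and 10.1 CPM in wild-type and 16.0, 25.4 and 11.6 CPM in sick quadriceps. All sick libraries were above the wild-type range, with a log2 fold change of 1.25 ± 0.37 (limma, adjusted p = 0.0397). The healthy knock-in quadriceps measured 27.3, 10.1, 24.8 and 14.1 CPM and covered the sick range. Its log2 fold change against wild type was 1.41 ± 0.34 but was not called (adjusted p = 0.752). The summed CPM of 14 macrophage markers was also higher in sick than in wild-type quadriceps, but did not follow Ctss library by library. Of the healthy knock-in quadriceps libraries, replicate 1 had the highest Ctss and the lowest marker sum. Replicate 4, with 14.1 CPM of Ctss, had the highest sum. In the quadriceps the 14 markers summed to 186 to 292 CPM in wild-type, 270.4 to 416 in healthy knock-in and 374 to 521 CPM in sick libraries. Of the 13 tested, 4 were called higher in sick than in wild-type muscle. Single markers differed in order. Median CPM in wild-type, healthy and sick quadriceps were 7.31, 10.8 and 8.11 for Adgre1 and 4.01, 11.3 and 7.76 for Cd68. For Csf1r they were 31.3, 34.5 and 55.6. In sick tibialis both Ctss (1.72, 8.93 and 2.33 CPM) and the macrophage markers (54.8, 279 and 65.1 CPM) were highest in replicate 2. Its Ctss value lay within the wild-type range of 3.76 to 11.5 CPM, and the other 2 lay below that range. The part of these cells in the Ctss values was not tested.

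Ctsd, the second most abundant member, was chosen for display after its values were seen. It measured 327, 215, 248 and 269 CPM in wild-type and 277, 493 and 510.2 CPM in sick gastrocnemius. In the quadriceps it measured 271, 265, 312 and 353 CPM in wild-type and 594, 537 and 322 CPM in sick libraries, and in sick tibialis 277, 631 and 303 CPM beside 285, 281, 468 and 301 CPM. Replicate 2 was high in each muscle, and replicate 4 lay inside the wild-type range in the quadriceps and the tibialis. The log2 fold changes of 0.66 ± 0.24, 0.66 ± 0.23 and 0.19 ± 0.28 were not called (limma, adjusted p = 0.0853, 0.0645 and 0.644). Without sick replicate 1 the gastrocnemius value was 0.93 (adjusted p = 0.0137), and without sick replicate 4 the quadriceps value was 0.92 (0.00707).

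**Figure D3:**
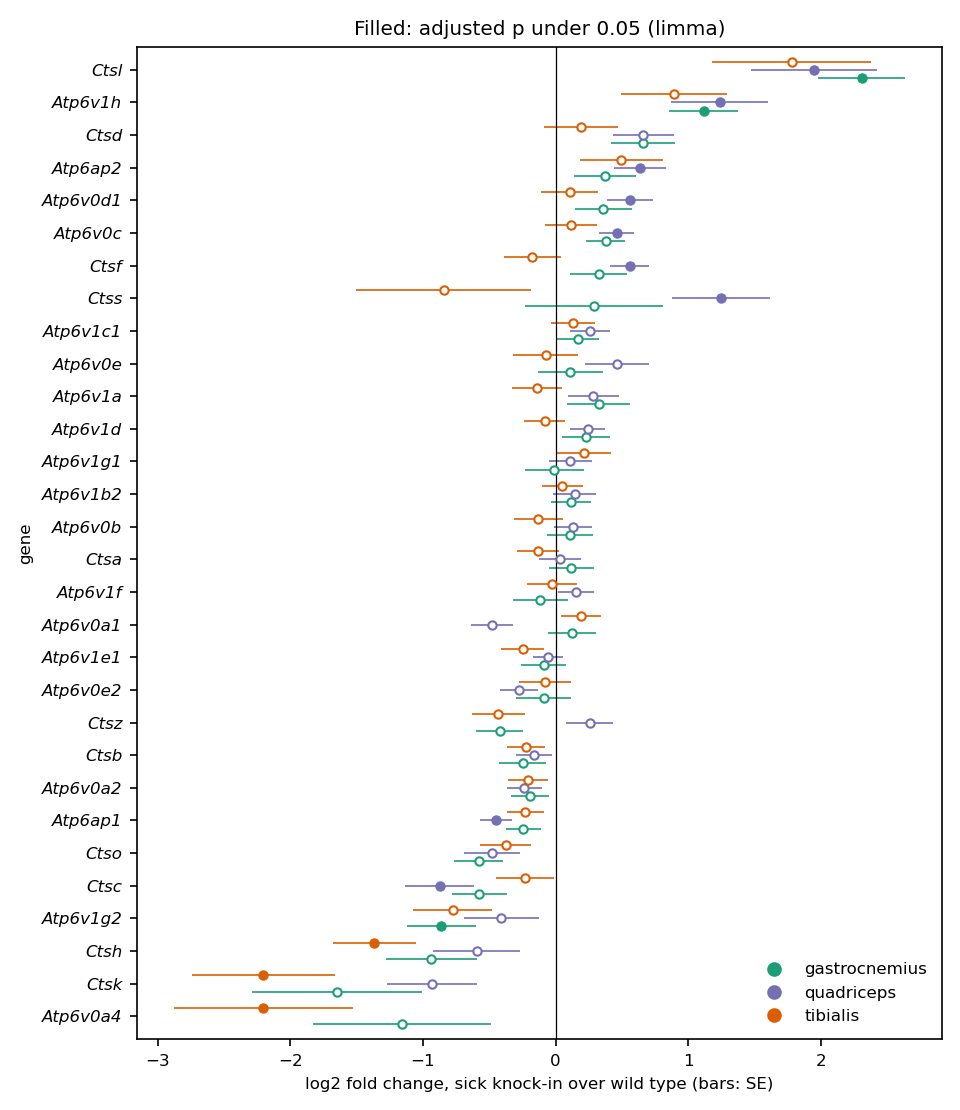
Log2 fold change of sick knock-in over wild type for the 30 members tested, with standard errors, in 3 muscles, and filled marks for an adjusted p under 0.05. Ctsl lies at the top with 2.31, 1.95 and 1.78, and Ctsk and Atp6v0a4 lie at the bottom with -2.20 each in the tibialis.

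Among the cathepsins that were lower, Ctsk and Ctsh were called in the tibialis and Ctsc in the quadriceps. Cathepsin K is a collagen-cleaving protease of osteoclasts and fibroblasts. In the tibialis Ctsk measured 19.8, 8.11, 7.10 and 11.9 CPM in wild-type and 0.980, 4.80 and 2.44 CPM in sick libraries. The groups did not overlap, and Ctsk fell by 2.20 ± 0.54 on the log2 scale (limma, adjusted p = 0.0207). Without sick replicate 1 the adjusted p was 0.0557. In sick gastrocnemius it measured 2.96, 7.45 and 4.30 CPM against 19.1, 10.3, 31.4 and 6.59 CPM, and in sick quadriceps 5.43, 11.5 and 4.85 CPM against 11.3, 14.4, 13.0 and 9.21 CPM. These ranges overlapped, and the log2 fold changes of -1.65 and -0.93 were not called (adjusted p = 0.104 and 0.0722).

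Cathepsin H is an aminopeptidase. In the tibialis Ctsh measured 12.4, 10.5, 10.5 and 11.1 CPM in wild-type and 3.86, 4.73 and 4.31 CPM in sick libraries, both groups being tight and far apart. It fell by 1.37 ± 0.31 on the log2 scale (limma, adjusted p = 0.0168), and the adjusted p was 0.0536 without sick replicate 2. In the gastrocnemius the sick libraries measured 5.79, 7.66 and 6.22 CPM against 19.2, 12.8, 13.1 and 7.01 CPM, and in the quadriceps 8.11, 9.98 and 9.62 CPM against 13.6, 18.7, 14.5 and 8.15 CPM. The log2 fold changes of -0.94 and -0.60 there were not called (adjusted p = 0.0874 and 0.215).

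Of 12 markers of fibro-adipogenic progenitors, the connective tissue precursors of muscle, some were called lower in each muscle. All 12 were read, and in the tibialis they summed to 1384 to 1821 CPM in wild-type and 681 to 1366 CPM in sick libraries, with 6 of 12 called lower. In the gastrocnemius they summed to 2371 to 3350 CPM in wild-type and 1358 to 2701 CPM in sick libraries, with 6 of 12 called lower. In the quadriceps they summed to 2355 to 2826 and 2194.5 to 2971 CPM, with 3 of 12 called lower. The summed ranges overlapped in these 2 muscles and not in the tibialis. The 7 osteoclast markers summed to 4.02 to 14.99 CPM in wild-type and 1.98 to 2.78 CPM in sick tibialis, with 0 of the 5 tested called. Wild-type tibialis is also the group with the kidney tubule reads given above, and 10 of 10 kidney tubule markers tested were called lower in sick tibialis. In the healthy knock-in tibialis these markers summed to 0.216 to 2.14 CPM, and against it the log2 fold changes of Ctsk and Ctsh in sick tibialis were -2.07 and -1.35, both called. The part of connective tissue cells was not tested.

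Cathepsin C is a dipeptidyl peptidase that activates the serine proteases of immune cell granules. Ctsc measured 57.1, 50.2, 59.1 and 33.6 CPM in wild-type and 21.3, 21.0 and 40.6 CPM in sick quadriceps. Replicates 2 and 3 were below the wild-type range and replicate 4 was inside it, with a log2 fold change of -0.87 ± 0.26 (limma, adjusted p = 0.0415). In sick gastrocnemius it measured 32.1, 20.7 and 18.2 CPM against 37.4, 32.8, 38.6 and 30.3 CPM, and in sick tibialis 38.2, 18.9 and 27.0 CPM against 31.8, 34.4, 31.8 and 28.1 CPM. The sick libraries below the wild-type range were replicates 2 and 3 in the gastrocnemius and quadriceps and replicates 2 and 4 in the tibialis.

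**Figure D4:**
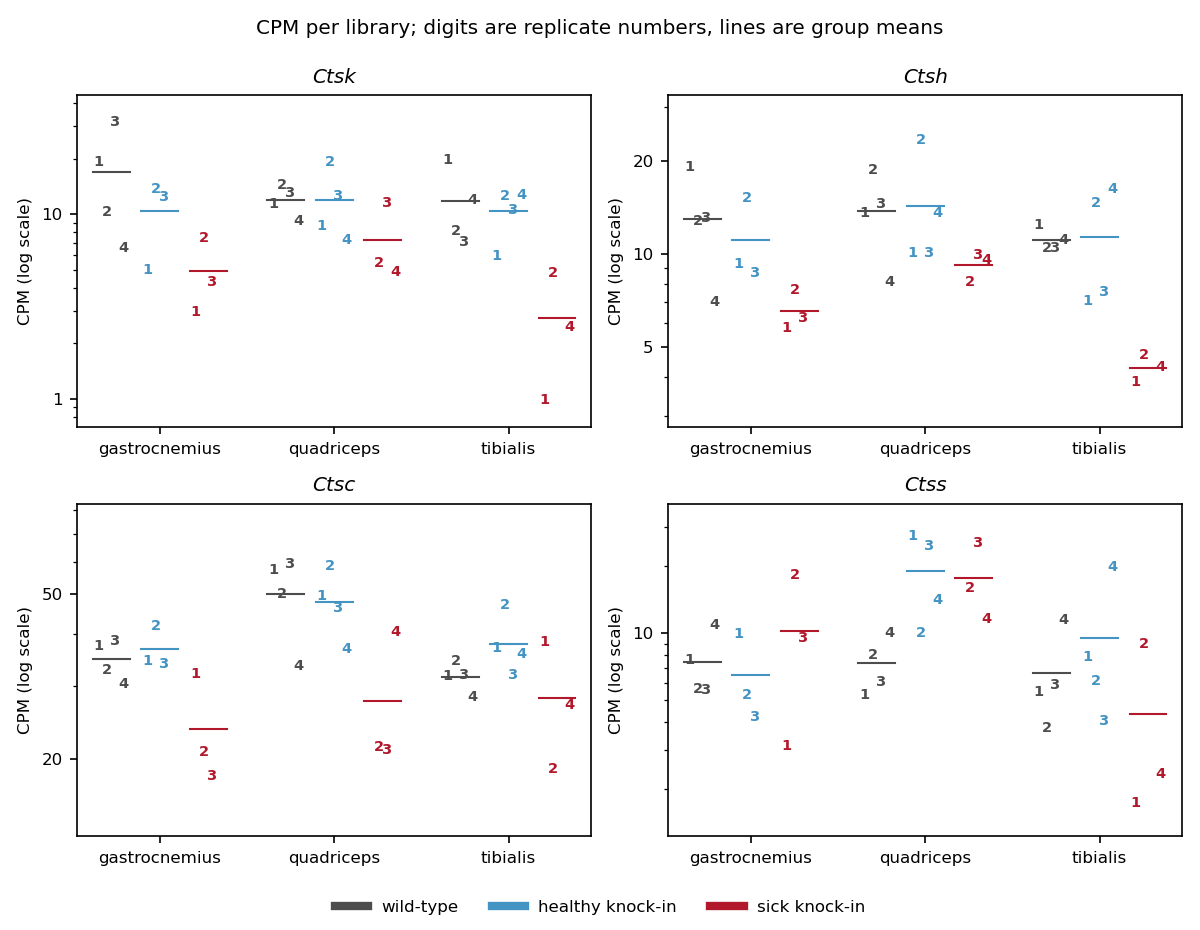
CPM on a log axis for Ctsk, Ctsh, Ctsc and Ctss in each library, by muscle and state, with replicate numbers as marks and group means as lines. In the tibialis the 3 sick libraries of Ctsk and of Ctsh lie below all wild-type and healthy knock-in libraries.

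The remaining cathepsins tested were not called in sick against wild-type muscle. Ctsb, the most abundant cysteine cathepsin per length, had log2 fold changes of -0.25, -0.16 and -0.22, and Ctso had -0.58, -0.48 and -0.38. Ctsz, a carboxypeptidase, had -0.42, 0.26 and -0.43. Ctsa, which shields lysosomal sialidase and galactosidase from breakdown, had 0.12, 0.03 and -0.13. Ctsb overlaps the highly read Fdft1, and Ctsa overlaps Pltp and Neurl2, on the opposite strand. No source states whether reads were assigned by strand, and Ctsz overlaps Nelfcd in the same way, so the values of these 3 cathepsins are uncertain.

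Of the V1 subunits, Atp6v1h (ENSMUSG00000033793, plus strand of GRCm38, chr1:5070018-5162529) was called higher in the gastrocnemius and the quadriceps. It measured 19.0, 12.5, 16.4 and 14.99 CPM in wild-type and 21.2, 42.0 and 44.4 CPM in sick gastrocnemius. The sick libraries were above the wild-type range, and the log2 fold change was 1.12 ± 0.26 (limma, adjusted p = 0.0208). Without sick replicate 2 or 3, or wild-type replicate 2, the adjusted p was 0.0927, 0.0788 or 0.0556. In the quadriceps it measured 15.4, 12.2, 13.9 and 17.7 CPM in wild-type and 54.5, 41.4 and 16.3 CPM in sick libraries. Sick replicate 4 lay within the wild-type range, and the log2 fold change was 1.24 ± 0.36 (limma, adjusted p = 0.0398). Without sick replicate 2 the log2 fold change was 0.78 (adjusted p = 0.232).

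In the tibialis Atp6v1h measured 12.7, 12.8, 16.4 and 13.6 CPM in wild-type and 16.8, 61.5 and 15.1 CPM in sick libraries. Replicate 2 alone stood far above the rest, and the log2 fold change of 0.89 ± 0.40 was not called (limma, adjusted p = 0.130). In the authors' deposited table its log2 fold changes are 1.20, 1.34 and 1.17, with adjusted p-values of 0.0192, 0.0108 and 0.0205.

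Atp6v1g2, a G subunit copy best known from neurons, was lower in sick gastrocnemius. It measured 2.25, 1.97, 2.096 and 2.03 CPM in wild-type and 1.06, 1.12 and 1.24 CPM in sick libraries, which rest on 29 to 71 and 11 to 21 reads. The groups did not overlap, and it fell by 0.86 ± 0.26 on the log2 scale (limma, adjusted p = 0.0476). The adjusted p rose to between 0.0579 and 0.163 when any 1 of the 7 libraries was left out. In the tibialis, where the groups did not overlap either (2.73, 2.01, 2.90 and 2.11 CPM against 1.35, 1.39 and 1.46 CPM), the log2 fold change was -0.78 (adjusted p = 0.0836). Its exons overlap those of Nfkbil1 on the opposite strand. None of the catalytic and stalk subunits Atp6v1a, Atp6v1b2, Atp6v1c1, Atp6v1d, Atp6v1e1, Atp6v1f and Atp6v1g1 was called in any muscle, and their log2 fold changes lay between -0.25 and 0.32.

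Of the V0 and accessory genes, calls in the quadriceps went both ways. Atp6ap2, the prorenin receptor and an accessory protein of the pump, measured 14.1, 16.9, 16.5 and 18.9 CPM in wild-type and 34.7, 22.6 and 19.2 CPM in sick libraries. The groups did not overlap, although replicate 4 sat just above the wild-type range, and the log2 fold change was 0.64 ± 0.20 (limma, adjusted p = 0.0437). Without sick replicate 2 it was 0.32 (adjusted p = 0.281). In sick gastrocnemius Atp6ap2 measured 16.5, 36.6 and 24.3 CPM and in sick tibialis 15.4, 42.0 and 14.8 CPM, again with replicate 2 highest, and the gastrocnemius value was called without sick replicate 1 (log2 fold change 0.66, adjusted p = 0.0449).

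Atp6v0d1, which links the V0 ring to the stalk, measured 32.3, 30.2, 38.2 and 41.1 CPM in wild-type and 63.5, 52.9 and 39.5 CPM in sick quadriceps, with a log2 fold change of 0.56 ± 0.17 (limma, adjusted p = 0.0421). Replicates 2 and 3 were above the wild-type range and replicate 4 within it. Atp6v0c measured 76.5, 75.5, 82.1 and 95.7 CPM in wild-type and 124, 113 and 99.6 CPM in sick quadriceps, all above the wild-type range, with a log2 fold change of 0.46 ± 0.13 (limma, adjusted p = 0.0371). Atp6ap1 went the other way. It measured 116, 114, 124 and 108 CPM in wild-type and 78.1, 78.0 and 95.04 CPM in sick quadriceps, with no overlap, and fell by 0.45 ± 0.12 on the log2 scale (limma, adjusted p = 0.0294). Its sick gastrocnemius libraries, at 82.0, 82.9 and 85.6 CPM, also lay below the 95.3 to 110.0 CPM of wild type, but were not called (adjusted p = 0.219). Besides the lost calls given above, Atp6v0d1 and Atp6v0c each kept the call in only 1 of 5 alternative settings, median-of-ratios scaling. Their adjusted p-values reached 0.1233 and 0.0928 in the other 4 (limma). Of the other quadriceps calls against wild type, that of Atp6ap2 was kept in 1 of the 5 settings. Those of Atp6v1h, Ctsf and Ctss were kept in 2, of Ctsl and Ctsc in 3 and of Atp6ap1 in 4. Atp6v0d1, Atp6v0c and Atp6ap1 were chosen for display after their values were seen.

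Atp6v0a4, the a subunit copy of kidney intercalated cells, was lower in sick tibialis on few reads. It measured 0.573, 0.669, 0.652 and 0.758 CPM in wild-type and 0.0613, 0.119 and 0.233 CPM in sick libraries, from 8 to 19 and 1 to 4 reads. The groups did not overlap, and the log2 fold change was -2.20 ± 0.68 (limma, adjusted p = 0.0428), a value that depends on the 0.5 added to each count. No sick library reached the low-count filter, which the gene passed through wild-type and healthy knock-in libraries. A lower level in sick libraries was thus built into its selection, and the call does not serve as a test. Leaving out any 1 of the 7 libraries gave an adjusted p between 0.0549 and 0.145. The kidney tubule markers were high in the same wild-type tibialis libraries, and their part in this value was not tested. In wild-type gastrocnemius, with 0.560 to 1.27 CPM of those markers, Atp6v0a4 measured 1.70, 0.492, 1.09 and 0.490 CPM. In healthy knock-in tibialis it measured 0.0687, 0.514, 0.863 and 0.279 CPM. Against that group, none of the 19 vacuolar ATPase genes tested was called in sick tibialis (limma, smallest adjusted p = 0.162). Exons of Atp6v0a4 overlap those of D630045J12Rik on the same strand, which had 743 reads in all beside 327 for Atp6v0a4.

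Set against the wild-type mean of its muscle, each sick library can be read for 28 members with at least 3000 reads in all. The libraries numbered 2 had 7 members more than 1.5-fold higher in the gastrocnemius, 9 in the quadriceps and 5 in the tibialis. Replicate 1 had 1 such member in the gastrocnemius and 1 in the tibialis, which was Ctsl each time, and replicate 4 had 1 in the quadriceps, Ctss, and 0 in the tibialis. Replicate 3 had 5 in each of the gastrocnemius and the quadriceps. Members more than 1.5-fold lower numbered 1 to 4 per library. Numbers are those of the labels, which do not say that a number marks a mouse. If it does, the libraries numbered 2 are muscles of the same mouse and not separate observations.

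**Figure D5:**
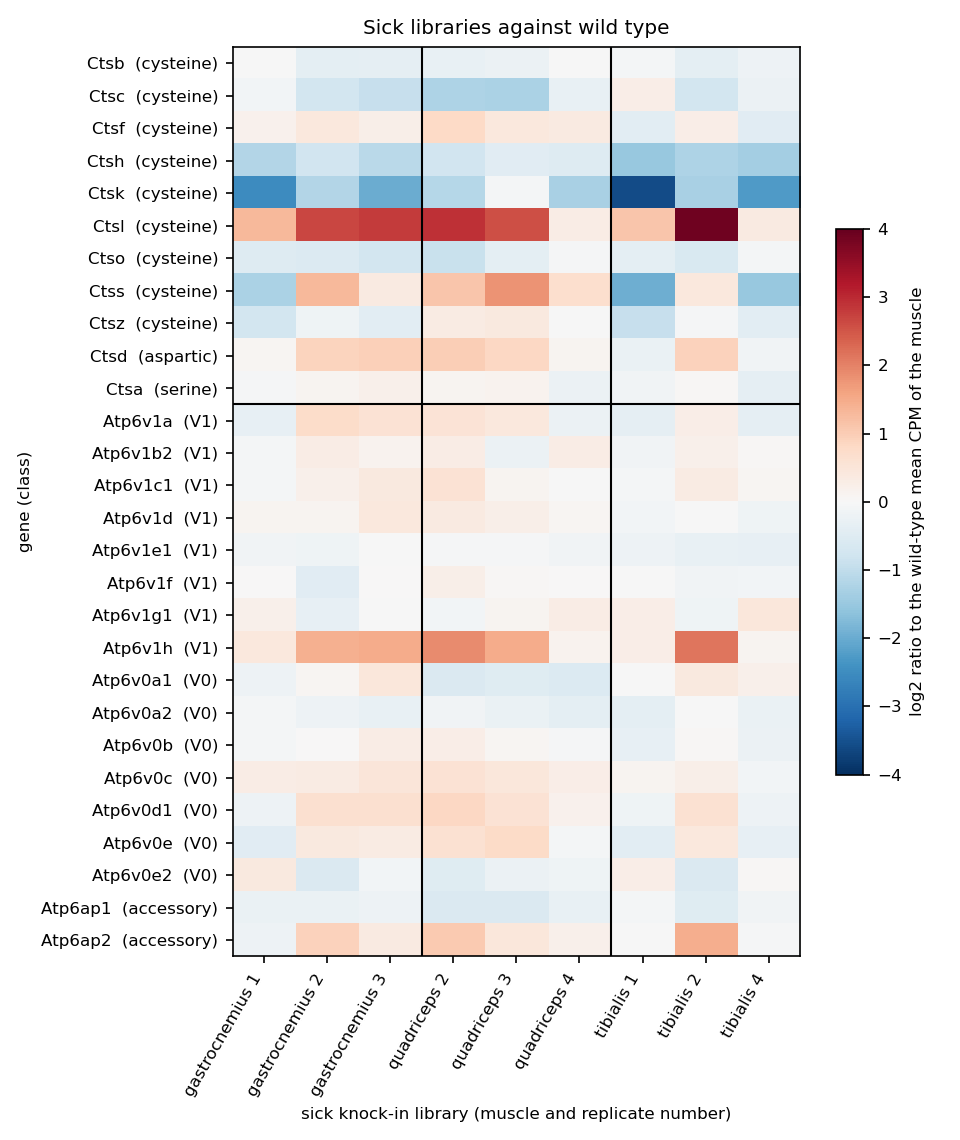
Log2 ratio of each of the 9 sick libraries to the wild-type mean CPM of its muscle, for 28 cathepsin and vacuolar ATPase genes grouped by class, in a colour scale from -4 to 4. Ctsl and Atp6v1h are red in the libraries numbered 2 and 3, pale in those numbered 4, and Ctsk and Ctsh are blue in most columns.

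In healthy knock-in against wild-type muscle no member was called in any muscle, where 0.00706%, 0.0362% and 0.496% of all genes tested were called in the gastrocnemius, quadriceps and tibialis (limma). At an unadjusted p under 0.05 there were 1 of 30, 3 of 29 and 1 of 30 members, beside 1083 of 14155, 637 of 13799 and 716 of 14520 genes tested (limma). Ctsl measured 69.7, 87.6 and 67.8 CPM in healthy gastrocnemius, 130.2, 124, 115 and 105 CPM in healthy quadriceps and 69.7, 97.9, 65.1 and 111 CPM in healthy tibialis. These values lay at or near the wild-type range, with log2 fold changes of -0.27 ± 0.30, 0.12 ± 0.43 and -0.06 ± 0.53. Atp6v1h had log2 fold changes of -0.07, 0.26 and 0.13. The largest log2 fold change of a member was that of Ctss in the quadriceps, 1.41, which was not called (limma, adjusted p = 0.752). It was above the Ctss value in sick against wild-type quadriceps given earlier, so that rise was not particular to sick mice.

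In sick against healthy knock-in muscle, which share the genotype, 4 of 30 members were called in the gastrocnemius (14.1% of all genes tested), 6 of 29 in the quadriceps (17.6%) and 2 of 30 in the tibialis (11.3%). Ctsl rose by 2.58 ± 0.34 on the log2 scale in the gastrocnemius and by 1.82 ± 0.47 in the quadriceps (limma, adjusted p = 0.0023 and 0.0274), and its value of 1.84 ± 0.60 in the tibialis was not called (0.0644). Ctsf rose by 0.88 and 0.66 in the gastrocnemius and quadriceps, Atp6v1h by 1.19 in the gastrocnemius, and Atp6v0d1 and Atp6v0c by 0.65 and 0.50 in the quadriceps. Atp6v1g2 fell by 1.01 in the gastrocnemius, and Atp6ap1 and Ctsb fell by 0.50 and 0.54 in the quadriceps. Ctsk and Ctsh fell by 2.07 ± 0.54 and 1.35 ± 0.31 in the tibialis (adjusted p = 0.0355 and 0.0266). The sick libraries are those used against wild type, so these values are not a second measurement of them. Leaving out sick replicate 2 or 3 ended all 6 calls of the quadriceps and that of Ctsl then had an adjusted p of 0.1398 or 0.1065. The calls of Ctsl, Atp6v0d1 and Atp6v0c there were each lost in 5 of 7 cases. The call of Ctsk in the tibialis was lost without any 1 of 6 of the 7 libraries (0.0533 to 0.0924), that of Ctsh without healthy replicate 2, sick replicate 1 or sick replicate 2 (0.0634 to 0.0772), and that of Atp6v1g2 in the gastrocnemius without any 1 of the 6 (0.0702 to 0.1243). In the gastrocnemius the call of Atp6v1h was lost in 4 of the 6 cases and that of Ctsf in 5 of 6, while that of Ctsl was kept each time, as it was against wild type.

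No member was called for a difference between muscles in the sick against wild-type change, in a model of all 32 libraries with 32 members tested. All genes were called at 0.0%, 0.204% and 0.243% for the quadriceps minus the gastrocnemius, the tibialis minus the gastrocnemius and the tibialis minus the quadriceps (limma). At an unadjusted p under 0.05 there were 2, 1 and 5 of the 32 members, and 173, 420 and 1204 of the 15229 genes tested (limma). For Ctsl the 3 differences were -0.37 ± 0.75, -0.53 ± 0.75 and -0.16 ± 0.75 on the log2 scale. Ctss had the value -2.07 ± 0.82 for the tibialis minus the quadriceps (adjusted p = 0.585).

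Between wild-type muscles, 0 of 31 members were called for the quadriceps against the gastrocnemius (1.07% of all genes tested). The tibialis against the gastrocnemius also gave 0 of 31 (2.58%). At an unadjusted p under 0.05 there were 4 and 2 of 31 members, beside 1607 and 2196 of 14708 genes tested (limma). For the tibialis against the quadriceps 2 of 31 were called, both lower in the tibialis, against 5.67% of all genes. Atp6v0a1, the main a subunit copy here, measured 71.6, 75.5, 67.1 and 66.5 CPM in the tibialis and 131, 109.8, 141 and 86.4 CPM in the quadriceps. The groups did not overlap, and the log2 fold change was -0.68 ± 0.15 (limma, adjusted p = 0.0226). Leaving out 1 of 5 of the 8 libraries took the adjusted p to between 0.0514 and 0.0875. Ctsc had a log2 fold change of -0.62 ± 0.17 (adjusted p = 0.0494), and 7 of the 8 libraries, left out in turn, ended that call (0.0838 to 0.1594). Sick quadriceps measured 79.3, 83.6 and 80.8 CPM of Atp6v0a1, below the wild-type range, with a log2 fold change of -0.48 (adjusted p = 0.0570).

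Other lysosomal genes, in lists written with earlier results of these data known, included calls in both directions in sick against wild-type muscle (in the order gastrocnemius, quadriceps, tibialis). The shares of all genes called were 14.7%, 18.0% and 18.1%, as above. Of 27 lysosomal membrane genes, 3, 7 and 6 were higher and 2, 1 and 1 lower, together 18.5%, 29.6% and 25.9%. Sidt2, a nucleic acid transporter of the lysosome, had log2 fold changes of 1.26, 1.26 and 1.08, and Lamp2, a major membrane protein and chaperone-mediated autophagy receptor, had 0.94, 0.72 and 0.70, all called (limma). Npc1, the cholesterol exporter, rose in the quadriceps and tibialis by 2.17 and 2.31, and Ostm1, partner of a chloride transporter, fell in the gastrocnemius and quadriceps by 0.74 and 0.70. With each of 7 libraries left out in turn, the Sidt2 call was kept in 7, 7 and 3 cases and the Lamp2 call in 6, 2 and 1. The Npc1 call was kept in 2 cases in the quadriceps and 3 in the tibialis, and in the quadriceps in 0 of 5 alternative settings. The Ostm1 call was kept in 5 cases in the gastrocnemius and 1 in the quadriceps. Of 44 other lysosomal hydrolases and cofactors, 3, 3 and 1 were higher and 4, 5 and 5 lower, together 15.9%, 18.2% and 13.6%, near or below the shares of all genes. Gaa, the glycogen-splitting acid glucosidase, rose by 1.03, 0.87 and 1.11. Aga fell by 1.05, 1.27 and 1.13, and Ppt1 by 0.74, 0.78 and 0.87, in all 3 muscles, and Arsb fell by 1.07 and 1.80 in the quadriceps and tibialis. These calls were kept in 2, 5 and 7 of 7 cases for Gaa, 4, 6 and 6 for Aga, 3, 6 and 7 for Ppt1, and 3 and 6 for Arsb. The last 3 are hydrolases of glycoproteins, lipid-modified proteins and sulphated sugars. The medians of these 2 lists were 0.16, 0.14 and 0.15, and -0.14, 0.03 and -0.27.

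Lysosomal enzymes reach the lysosome by sorting receptors and adaptors. Of 21 such genes, 2, 3 and 3 were higher and 0, 0 and 1 lower, together 9.52%, 14.3% and 19.0% against the same shares of all genes. Ap3b1 was higher in all muscles by 0.98, 0.86 and 0.72, as were Ap3d1 in the gastrocnemius by 0.78, and Sort1 and Gnptab in the tibialis by 1.20 and 0.95. The Ap3b1 call was kept in 7, 5 and 2 of 7 fits that each left out 1 library, that of Ap3d1 in 2, and those of Sort1 and Gnptab in 7 each. Cystatins inhibit cysteine cathepsins. Only 3 of 16 were tested, and Cst3 fell by 0.77 and 0.53 in the gastrocnemius and quadriceps. Among assembly factors and regulators of the pump, Dmxl2 rose by 1.24 and 1.30 in the quadriceps and tibialis, Tldc1 fell by 0.62 in the tibialis, and no other of the 12 to 13 tested was called. Of 7 tested members of the MiT-TFE group, transcription factors of lysosomal genes and their regulators, 1, 1 and 0 were called, Flcn higher by 1.55 in the gastrocnemius and Mitf by 0.58 in the quadriceps. Of the 9 Ragulator and Rag genes, which anchor growth signalling to the lysosome, Lamtor4 fell by 0.40 and Lamtor3 rose by 0.53 in the quadriceps, and Lamtor1 fell by 0.54 in the tibialis. The calls of Cst3, Dmxl2, Tldc1, Flcn, Mitf and these 3 genes were each kept in 1 to 3 of 7 such fits.

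MiT-TFE factors bind the letters TCACGTGA, which contain CACGTG, and both were searched for on both strands of promoter windows from RefSeq (GRCm38.p6), 250 bases before to 50 after a gene's start. Of 44 members 33 had a window, with 37 windows in all. A member counted once if any of its windows matched, while the shares of all windows count each window. TCACGTGA was found in 5 of the 33 (15.2%) and in 0.974% of all 32851 windows. CACGTG was found in 8 of the 33 (24.2%), the same 5 included, and in 7.15% of all windows. GTAAACA, the letters of FoxO factors, was found in 1 of 33, Atp6v1b1, and in 3.65% of all windows. A match describes the sequence and is not a binding site. The sequences below are the 30 bases around 1 match per member, 5′ to 3′ on the gene's strand with CACGTG in capitals. They cover 3 of the 7 members called higher in sick quadriceps (Ctsl, Ctsf and Atp6v0d1) and the other 4 members with the longer motif.
Ctsl, chr13:64370739-64370768, minus strand: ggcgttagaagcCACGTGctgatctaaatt
Ctsf, chr19:4855074-4855103, plus strand: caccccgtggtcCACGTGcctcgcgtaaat
Atp6v0d1, chr8:105566050-105566079, minus strand: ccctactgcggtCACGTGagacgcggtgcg
Ctsd, chr7:142387908-142387937, minus strand: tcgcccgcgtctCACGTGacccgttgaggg
Ctsa, chr2:164833749-164833778, plus strand: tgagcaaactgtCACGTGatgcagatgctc
Atp6v0e, chr17:26676387-26676416, plus strand: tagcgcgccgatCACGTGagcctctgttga
Atp6v1a, chr16:44139373-44139402, minus strand: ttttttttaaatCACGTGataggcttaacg
Positions count from the RefSeq start of the window. The match of Ctsl begins 236 bases before it, that of Ctsf 79, of Atp6v0d1 3 and of Ctsd 98 bases. That of Ctsa begins 12 and of Atp6v1a 131 bases before it, and that of Atp6v0e at base 4 from it. Gene spans of GENCODE vM21, used for the positions of Ctsl and Atp6v1h above, can start elsewhere. By those spans the matches of Ctsl, Ctsd, Ctsa, Atp6v0e and Atp6v1a lie inside the gene. Ctsl and Ctsf hold the 6 letters without the outer T and A. Of the members with the longer motif, Atp6v0d1 was called in the quadriceps, and Ctsd, Ctsa, Atp6v0e and Atp6v1a were not called in any muscle. Atp6v0b, which holds CACGTG with the outer T but without the outer A and is not shown, was not called either. No CACGTG was found for Ctss, Atp6v1h, Atp6ap2 and Atp6v0c, the other members called higher in sick quadriceps. Some members had no window to search. Which of these genes had a window is not given here, so the lack of a match can also mean that none was searched.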

How the data were processed

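RNA-seq values come from 1 deposited table, in which, per the file headers, the authors give raw counts of reads for each gene, the counts divided by a factor per library, and log2 fold changes with adjusted p-values for their own comparisons. The submitters' processing notes name cutadapt 1.18, TopHat2 2.1.1, HTSeq 0.6.0, DESeq2 1.22.1 and GRCm38. Raw columns also hold marks for missing values, for which reason limma-voom (limma 3.58.1, R 4.3.3) was fitted to them, 3 states of a muscle per model, with robust moderation of the variances. Totals were scaled by trimmed means (TMM). Genes needed 10 counts, at the median library total, in at least as many libraries as the smallest group, and 15 counts overall. Before taking logarithms 0.5 was added. CPM use the scaled totals, and CPM per kb divide by the union of exons in GENCODE vM21. In each of 42 pairs the replicates of a group differed by more than counting noise, with a chi-square of 14.1 to 239 per gene. The fit was tested on simulated data.

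Per-library values are printed for Ctsl, up to 10 members called in the most muscles in sick against wild type (ties by mean absolute log2 fold change) and members called in the healthy and wild-type comparisons, 11 in all. From each list up to 4 genes called in the most muscles are named. The members, the lists and the rule were chosen with earlier results of these data known. Alternatives were median-of-ratios scaling, no filter, only the 2 groups or all 32 libraries in the model, a replicate block, and leaving out each library.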

Additional observations from a re-analysis of the deposited data

Results flagged for a closer look

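Of 120 values checked in groups of 4 libraries (genes with printed values and the summed cell type markers), 5 had 1 library far from the other 3, where chance alone flags about 5%. Ctsd measured 468 CPM in wild-type tibialis replicate 3. Atp6ap1 measured 110.0 CPM in wild-type gastrocnemius replicate 1. The fibro-adipogenic progenitor markers summed to 3350 CPM in the same wild-type gastrocnemius library. The osteoclast markers summed to 54.5 CPM in healthy knock-in quadriceps replicate 4 and to 14.99 CPM in wild-type tibialis replicate 1.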

How the results depend on the processing

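Main counts of members called higher and lower were, in sick against wild type, 2 and 1 in the gastrocnemius, 7 and 2 in the quadriceps and 0 and 3 in the tibialis, and in sick against healthy knock-in 3 and 1, 4 and 2, and 0 and 2. Without the filter on low counts, gastrocnemius counts of lower members were 0 in both comparisons, quadriceps counts of higher members 0 in both, and lower tibialis members against healthy 1. With only the 2 groups in the model the lower gastrocnemius counts were 0 and 0, the quadriceps counts 2 higher and 1 lower against wild type and 0 and 0 against healthy, and the lower tibialis count against healthy 0. With all 32 libraries in the model the lower gastrocnemius counts were 3 and 3, quadriceps had 2 higher against wild type and 5 lower against healthy, tibialis had 1 higher in each comparison and 4 lower against healthy, and wild-type tibialis against quadriceps had 1 call. Median-of-ratios scaling gave 0 lower members in the gastrocnemius against wild type. Other counts under these settings stayed within 1.5 times the main count. The cause was not tested, except that unfiltered fits test more genes.

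Leaving out each library in turn gave, against wild type, 1 to 6 higher and 0 to 2 lower in the gastrocnemius, 0 to 10 and 0 to 3 in the quadriceps, and 0 to 2 and 1 to 2 in the tibialis. Against healthy knock-in it gave 1 to 7 and 0 to 1, 0 to 6 and 0 to 4, and 0 to 1 and 0 to 2. Wild-type quadriceps against gastrocnemius had 0 to 2 calls, tibialis against quadriceps 0 to 2, and healthy against wild type and the differences between muscles 0 each time. Over all tested members and the named list genes, no called value changed direction, but called values lost the call in 110 of 328 refits under another setting and in 243 of 460 refits without a library. Few reads limit the precision of Atp6v0a4 and Atp6v1g2.

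A replicate block within a muscle gave 1 higher and 0 lower member in the quadriceps against wild type and 2 and 1 against healthy, 1 lower in the tibialis in each comparison, and 0 lower in the gastrocnemius against healthy; no other count moved by over 1.5 times. Same-numbered libraries of different states within a muscle did not deviate together (median correlation 0.0411, 0.0078 and -0.0025), so they share only a number. Across muscles, sick and healthy libraries each correlated best with their own number, in 12 of 12 and 20 of 20 cases, and wild-type libraries in 20 of 24, a hint from the data and not from the labels. A block by number across the wild-type muscles kept the member counts of 0, 0 and 2, while the share of all genes called went from 1.07 to 1.72% for quadriceps against gastrocnemius, 2.58 to 4.79% for tibialis against gastrocnemius and 5.67 to 10.9% for tibialis against quadriceps.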
